A study of Mus musculus with 16 samples.

Results

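The response of ear skin to phorbol 12-myristate 13-acetate (PMA) in mice kept on a high-fat diet (HFD) was read from 8 of the 16 libraries of the series: 4 from PMA-treated ears and 4 from untreated ears. The labels give the diet and the treatment of each library, and the comparison covered the whole transcriptome, with 17604 of 48440 listed genes above the low-count filter and 18858 genes at 0 in every library. All 8 libraries came from B6 mice after 8 weeks of high-fat feeding. For the treated group, 200 ng of PMA was put on each ear and the tissue was taken 24 hours later. The untreated ears are labelled as not treated, and the labels do not say whether they received the solvent. The other 8 libraries are the same 2 treatments in mice on a normal diet (ND). The design names 4 mice per group, so each library is read as 1 mouse. No label used here gives age or sex; Xist was at 0 and Uty was at 29.2 to 37.1 CPM (counts scaled to a common library total) in all 8 HFD libraries.

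PMA enters cells and binds protein kinase C in place of the lipid messenger diacylglycerol, which switches the kinase on and keeps it on. In keratinocytes the signal passes through the MAP kinases and NF-kB to transcription factors of the AP-1 family, and genes of growth, inflammation and repair follow. On mouse ears PMA is a standard irritant, known for swelling, for entry of neutrophils and monocytes, and for thickening of the epidermis.

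Library totals ran from 7989172 to 13801239 counts in the HFD groups, and mitochondrial genes took 2.09% to 3.06% of them. The first principal component of log2 CPM held 30.7% of the variance and had all 4 PMA libraries on 1 side and all 4 untreated ones on the other. A pair of library number series occurs in the labels: untreated replicate 1 carries the prefix RHS and the other 7 HFD libraries carry RHP. That library also stood apart in the muscle genes, and both groups varied in hair shaft genes, as given below with those lists. Of the 196 genes picked by the naming rule, 47 have exons that overlap those of a further gene (opposite strand only in 37), and their values may include reads of that partner. Among those given below these include Krt6a, Krt6b, Bcl3, Plk1, Slc2a1, Tnc, Cers4, Tef and Bhlhe40, mostly with predicted genes, Col9a3 with Tcfl5, Far2 with Ergic2, Mmp12 with Mmp1b and Nfkb2 with Psd. In bulk tissue, fewer cells of a type and less RNA per cell cannot be told apart, and this holds for every marker list below.

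PMA changed the expression of 2101 of the 17604 genes tested, 11.9% of them, at an adjusted p below 0.05 (edgeR quasi-likelihood test, Benjamini-Hochberg over all genes tested). Of these, 1292 were higher (7.34% of genes tested) and 809 were lower (4.6%). At least 2-fold changes among the called genes numbered 548 higher (3.11%) and 261 lower (1.48%), and at least 4-fold changes numbered 175 higher and 65 lower. The called higher genes together held 11.1% to 12.1% of counts in untreated ears and 17.6% to 22.9% in PMA ears. The called lower genes held 13.9% to 14.5% in untreated ears and 7.51% to 9.8% in PMA ears. Both sets were picked by this same comparison, so these directions were fixed in advance and the shares are descriptions. The values of the 4 PMA and 4 untreated libraries did not overlap for 3303 genes, 18.8% of those tested. Among RHP libraries alone, with all 5 RHS libraries of the series left out of the fit, the counts were 1146 higher and 621 lower, and with the number series as a covariate 1137 higher and 669 lower. That covariate is close to leaving out untreated replicate 1, the only RHS library of the HFD groups, and is not a separate check. Without PMA replicate 2 the counts fell to 763 higher and 442 lower. Leaving out untreated replicate 3 gave 859 higher and 537 lower, and leaving out untreated replicate 4 gave 841 higher and 560 lower.

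**Figure D1:**
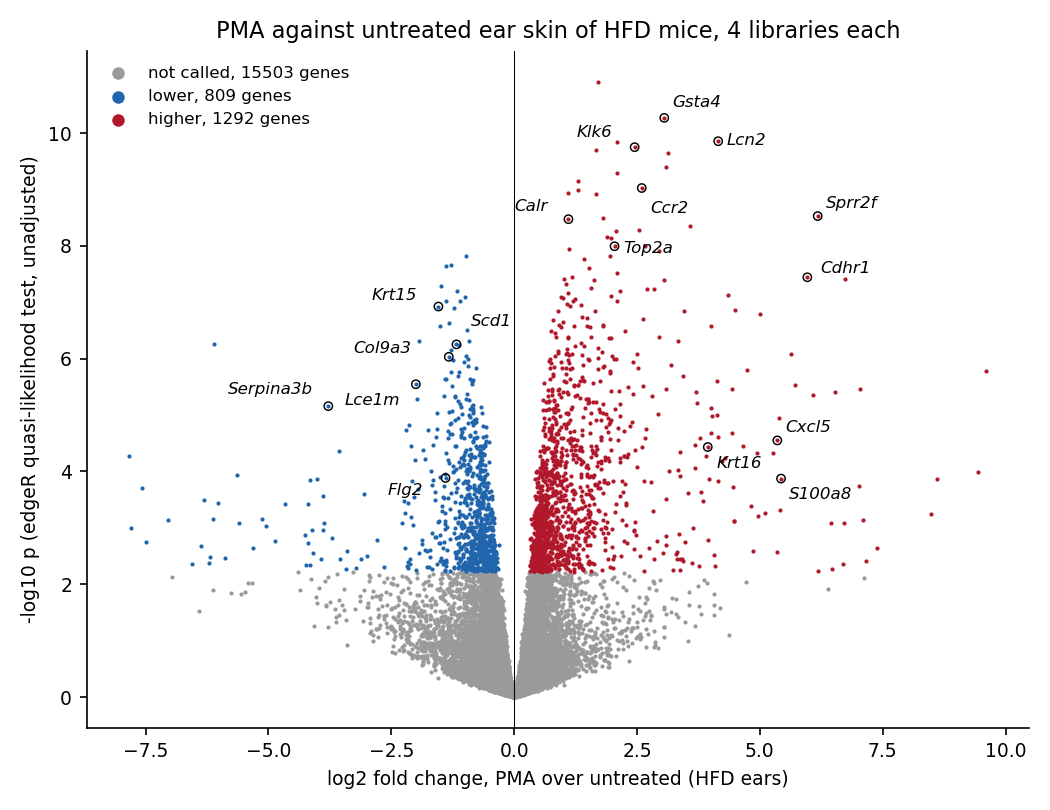
Log2 fold change (x axis) against -log10 of the unadjusted p (y axis) for the 17604 genes tested, PMA over untreated ears of HFD mice, 4 libraries each. Red points are the 1292 genes called higher and blue points the 809 called lower, and circled genes are described in the text.

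Receptors of PMA were called about as often as all genes tested, 2 of 19 against 11.9%. Of these 19 protein kinase C isoforms and other phorbol ester receptors, 0 were higher and 2 were lower: Prkd1, a protein kinase D, and Rasgrp3, an exchange factor for RAS. Prkd1 was at 5.07, 4.87, 6.97 and 12.5 CPM in untreated ears and 2.02, 1.51, 3.13 and 3.76 CPM in PMA ears. Rasgrp3 was at 6.67, 6.96, 7.41 and 6.3 CPM without PMA and 2.6, 0.715, 3.99 and 0.878 CPM with it. Neither gene's groups overlapped, but neither call held over all leave-one-out fits: 0 of the 19 were lower without PMA replicate 2, and 1 without PMA replicate 1 or 4 or untreated replicate 2, 3 or 4. Prkca, a classical isoform, was at 19.6 to 38 CPM without PMA and 23.4 to 38.6 CPM with it (adjusted p = 0.73, edgeR).

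Among 21 tested AP-1 and immediate early genes, 1 was called, Junb, which encodes an AP-1 subunit; 1 other was called lower without PMA replicate 4 or untreated replicate 1. Junb was at 187, 247, 262 and 212 CPM in untreated ears and 358, 366, 357 and 282 CPM in PMA ears, with no overlap (log2 fold change 0.58 ± 0.14 SE, adjusted p = 0.00798). Exons of Prdx2 overlap it on the opposite strand, and reads of the pair cannot be separated here. Fos was at 22.9 to 70.2 CPM without PMA and 20.8 to 31.7 CPM with it, and Fosl1 at 2.97 to 11.5 and 10.7 to 16.3 CPM, neither past the test. Of 17 MAP kinase feedback genes 1 was called, the phosphatase gene Dusp14, which fell from 184 to 217 CPM to 114 to 166 CPM (log2 fold change -0.60 ± 0.15, adjusted p = 0.0104). Of 19 NF-kB pathway genes 4 rose: Bcl3, Zc3h12a, Tnfaip3 and Nfkb2, where Tnfaip3 and Zc3h12a encode feedback inhibitors and Nfkb2 a precursor subunit. Bcl3, a nuclear cofactor of NF-kB, rose from 10.1, 8.04, 7.12 and 9.34 CPM to 29.9, 33.3, 27 and 22.9 CPM. That count was 2 without PMA replicate 1, 2 or 3 or without untreated replicate 1, 3 or 4. Nfkb2 and Tnfaip3 each lost their call in 7 of the 8 leave-one-out fits (highest adjusted p, edgeR, 0.139 and 0.142).

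Genes of the keratinocyte stress programme, the keratins and small proteins that skin makes when it is wounded or thickened, rose with PMA. Of 22 tested genes on that list 19 were higher and 0 lower, with a median log2 fold change of 2.40 against -0.017 over all genes tested. Sprr2f and other members near 0 in untreated ears may have passed the low-count filter only through PMA libraries. This count is therefore a description. Krt16, a keratin of activated epidermis on chromosome 11 (100246091 to 100248902, GRCm38), was at 375, 188, 107 and 271 CPM in untreated ears and at 3725, 5306, 2745 and 2659 CPM in PMA ears. Its lowest PMA value was above its highest untreated one, and the log2 fold change was 3.94 ± 0.64 (adjusted p = 0.00153). Krt6a, which pairs with Krt16 in the same filaments, rose from 223, 129, 78.9 and 235 CPM to 2698, 3483, 1423 and 1481 CPM (log2 fold change 3.77 ± 0.59). Krt6b rose from 202, 35.3, 8.57 and 81.7 CPM to 2810, 3889, 1297 and 1427 CPM. Krt6a and Krt6b are closely related in sequence, so the split of reads between them is uncertain, and the call of Krt6b was lost in 5 of the 8 leave-one-out fits (highest adjusted p = 0.0843).

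Small proline-rich proteins, which are cross-linked into the cornified envelope, moved with those keratins. Sprr2f was close to absent in untreated ears, at 0.371, 0.309, 0.363 and 0.217 CPM, and reached 39.6, 28.7, 12.6 and 14 CPM with PMA (log2 fold change 6.18 ± 0.62, adjusted p = 3.48e-06). Sprr2e went from 2.59, 2.47, 1.89 and 0.326 CPM to 61.3, 49.7, 18 and 21.2 CPM (log2 fold change 4.35 ± 0.53). Both genes were higher in PMA replicates 1 and 2 than in 3 and 4. Stfa1, a cysteine protease inhibitor of the stefin family, rose from 2.84, 0.386, 0.509 and 0.217 CPM to 52.6, 22.3, 9.47 and 14.2 CPM. Members of the SPRR2 and stefin families have close copies, and no source used here says how shared reads were counted. Klk6, a kallikrein protease named after its values were seen, rose from 55.1 to 75 CPM to 277 to 490 CPM, with an adjusted p of 5.64e-07 in edgeR. The 3 tested members that did not pass were Krt75 (log2 fold change 1.11), Stfa3 (1.61) and Klk8 (0.32).

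**Figure D2:**
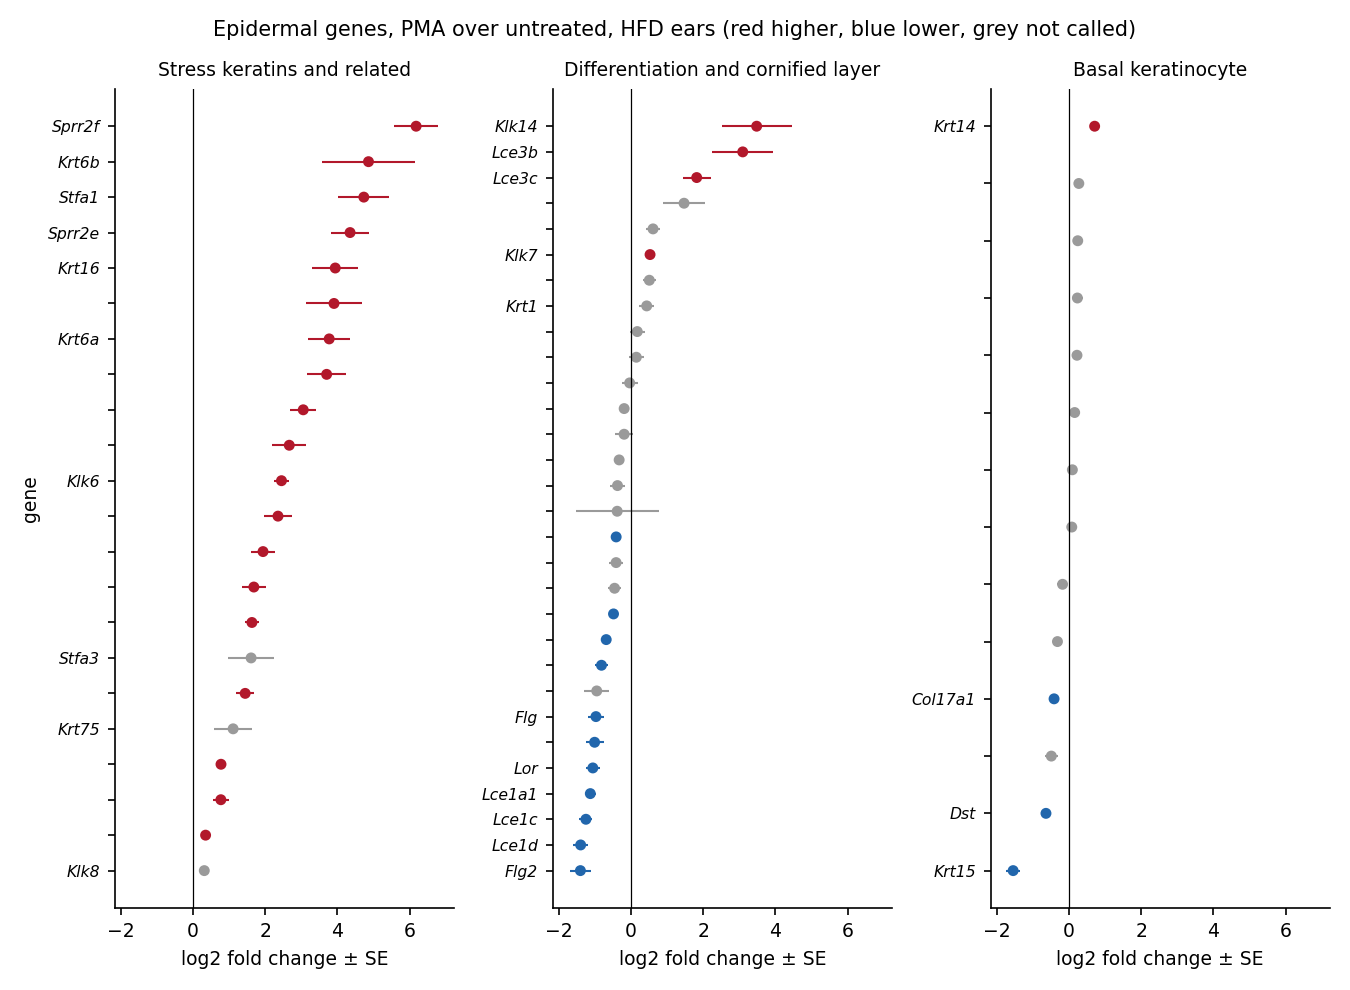
Log2 fold change with its SE (x axis) for tested members of 3 epidermal lists (y axis, 1 row per gene, with names for those described; 1 basal gene is not shown), PMA over untreated ears of HFD mice, 4 libraries each. Stress genes lie to the right with Sprr2f at 6.18, late cornified envelope genes of the Lce1 family and Flg2 lie to the left of 0, and most basal genes sit near 0.

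The AP-1 site TGACTCA, also read as TGAGTCA on the other strand, is the sequence that PMA-activated AP-1 is known to bind. It was searched on both strands in the 250 bases before each gene's start in the RefSeq promoter table (GRCm38.p6), where 4.46% of 32851 promoters hold it. Of the 114 higher genes picked by the naming rule, 94 had a promoter in the table and at least 11 of these held the site. Of the 76 lower genes, 61 had a promoter and at least 1 held it, Dhcr7. Both are lower bounds, because sites on 1 chromosome were left out of these counts but its genes were not. The named genes were picked by size of change and by list, so their counts do not stand for all called genes. Of matched promoters the site was in 5.16% for all higher genes, 3.83% for all lower genes and 3.86% for all genes tested. These shares are descriptions. Of all genes tested 68.8% had a promoter, too few for a comparison of shares between called and other genes, which is therefore void. The windows of 60 bases below show the site in capitals, 5′ to 3′ on the gene's strand, for the SPRR2 genes above and for genes of matrix breakdown and interleukin 1 control described further on. A match is a description of these letters and not evidence of binding.
Sprr2f (chr3:92364964-92365023, plus strand): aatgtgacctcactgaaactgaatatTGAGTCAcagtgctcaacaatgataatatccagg
Sprr2e (chr3:92351924-92351983, plus strand): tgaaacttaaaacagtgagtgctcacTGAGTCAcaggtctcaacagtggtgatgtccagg
Mmp13 (chr9:7272453-7272512, plus strand): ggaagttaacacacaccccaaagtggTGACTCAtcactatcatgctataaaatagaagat
Mmp3 (chr9:7445750-7445809, plus strand): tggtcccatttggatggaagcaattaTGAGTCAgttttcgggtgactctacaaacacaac
Mmp12 (chr9:7347304-7347363, plus strand): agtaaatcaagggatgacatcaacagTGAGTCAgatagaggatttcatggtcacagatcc
Plaur (chr7:24462388-24462447, plus strand): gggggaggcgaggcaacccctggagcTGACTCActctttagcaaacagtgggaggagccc
Il1rn (chr2:24336693-24336752, plus strand): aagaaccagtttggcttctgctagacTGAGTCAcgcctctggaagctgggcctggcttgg
The site begins 197 bases before the start in Sprr2f and 193 in Sprr2e, and 35, 46 and 44 bases before it in Mmp13, Mmp3 and Mmp12.

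Genes of late differentiation, the proteins of the granular and cornified layers that form the barrier, divided. Of 30 tested genes 11 were lower and 4 higher, with a median log2 fold change of -0.37. Flg2, a filaggrin-type matrix protein, was at 758, 847, 984 and 1119 CPM in untreated ears and 235, 160, 389 and 627 CPM in PMA ears (log2 fold change -1.40 ± 0.29, adjusted p = 0.00354). Lce1d, from the late cornified envelope cluster on chromosome 3, fell from 69.3, 49, 51.7 and 53.1 CPM to 24.9, 13.5, 22.9 and 23.8 CPM (log2 fold change -1.39 ± 0.21). Lce1c and Lce1a1 fell alongside it, by 1.24 and 1.12 on the log2 scale. Lce1m, which the list does not hold, was among the 12 largest decreases of the whole comparison, from 191, 204, 280 and 285 CPM to 36, 27.9, 75.5 and 101 CPM (log2 fold change -2.0 ± 0.30). In none of these 5 genes did the groups overlap, which also held for 18.8% of all genes tested and was a condition for naming Lce1m. Lor and Flg, named after their values were seen, fell by 1.05 and 0.97 on the log2 scale.

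The 4 differentiation genes that rose were Lce3b, Lce3c, Klk7 and Klk14, the last 2 being proteases of the cornified layer that fall outside the naming rule. Lce3c, whose family is known to be induced in damaged skin, went from 26.6, 14.7, 5.38 and 5.76 CPM to 71.6, 48, 26.7 and 37.4 CPM (log2 fold change 1.82 ± 0.39, adjusted p = 0.00397). Its lowest PMA value, 26.7 CPM, was level with its highest untreated one, 26.6 CPM. The calls of Lce3b and Klk14 were lost in 5 and 3 of the leave-one-out fits, and the count of higher genes was 2 without PMA replicate 2 or untreated replicate 2 or 4. Krt1, the first keratin of differentiation, was at 1481 to 3094 CPM without PMA and 2535 to 3545 CPM with it (log2 fold change 0.44, adjusted p = 0.20).

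In the basal layer, which holds the dividing keratinocytes, 2 of 15 genes were higher and 3 lower. Krt14, the basal keratin, rose from 9135, 8901, 8042 and 7643 CPM to 13680, 16580, 12700 and 12370 CPM (log2 fold change 0.71 ± 0.13, adjusted p = 0.0012). Krt15, a keratin of quiescent basal and hair follicle stem cells, fell from 2764, 2804, 3505 and 3844 CPM to 792, 815, 1132 and 1700 CPM (log2 fold change -1.54 ± 0.19, adjusted p = 3.44e-05). No PMA library reached the lowest untreated value of Krt15. Dst and Col17a1, parts of the hemidesmosome that anchors basal cells, fell by 0.63 and 0.41 on the log2 scale, the latter with its call lost in 3 of the leave-one-out fits. Of 14 hair follicle stem cell genes 0 were higher and 3 lower: Krt15, the surface marker Cd34 and Lgr6, a receptor for R-spondins, which fell from 94.2, 90.4, 113 and 91.2 CPM to 30, 34.7, 50.5 and 68.6 CPM.

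Neutrophil genes went from traces to clear signal. Of 20 listed genes 12 passed the low-count filter, several of them only through the PMA libraries, so the count that follows is a description: 9 were higher and 1 lower. S100a8 and S100a9 encode the 2 chains of calprotectin, which neutrophils carry in bulk and activated keratinocytes also make. S100a8 was at 22.4, 5.87, 3.92 and 2.82 CPM in untreated ears and 749, 380, 139 and 182 CPM in PMA ears (log2 fold change 5.43 ± 1.00, adjusted p = 0.0036). S100a9 was at 10.7, 3.86, 2.69 and 1.52 CPM without PMA and 366, 195, 64.9 and 78 CPM with it. In both genes replicate 1 was the highest in each group, and the groups stayed apart. Csf3r, the receptor for the growth factor of neutrophils, rose from 3.95, 3.01, 2.62 and 0.217 CPM to 47, 75.3, 31.2 and 19.4 CPM (log2 fold change 4.13 ± 0.61, adjusted p = 0.000259).

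Clec4d and Clec4e, paired lectin receptors of neutrophils and monocytes, moved the same way. Clec4d went from 1.48, 0.232, 0.145 and 0.543 CPM to 35.7, 52.8, 13.5 and 7.77 CPM, and Clec4e from 2.22, 1.47, 2.25 and 0 CPM to 42.8, 45.7, 11 and 7.02 CPM. PMA replicate 4 was the lowest PMA library for both. Some granule and surface genes of the list stayed near 0 over the 8 libraries. Ly6g was at 0 to 0.397 CPM, Elane at 0 and Ngp at 0 to 0.155 CPM. Retnlg and Fpr1, outside the naming rule, were called higher and kept their calls in all 8 leave-one-out fits. Mmp8, also outside that rule, and Hdc were called higher but lost their calls in 5 of these fits. Mpo, the 1 lower gene and outside the naming rule, was at 0 to 2.17 CPM without PMA and 0 in all PMA libraries, and its call was lost in 4 of the leave-one-out fits. The summed level of all the list's genes, tested or not, was 10.8 to 59.9 CPM in untreated and 297 to 1318 CPM in PMA ears. Most of that sum came from S100a8 and S100a9, which stood at 749 and 366 CPM in the PMA ear with the highest sum and at 139 and 64.9 CPM in the one with the lowest.

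Antimicrobial and acute phase genes rose, with 10 of 16 tested genes higher and 1 lower and a median log2 fold change of 2.88. Members near 0 in untreated ears, such as Saa3, may have passed the low-count filter only through PMA libraries. The count is therefore a description. The list shares S100a8 and S100a9 with the neutrophil list and Chil3, Saa3 and Lyz2 with the monocyte list. Lcn2, a siderophore-binding protein of neutrophils and epithelium, was at 4.82, 3.94, 3.85 and 1.85 CPM in untreated ears and 62.5, 91.3, 56.1 and 47.9 CPM in PMA ears (log2 fold change 4.15 ± 0.35, adjusted p = 5.64e-07). The 4 PMA libraries of Lcn2 lay within 47.9 to 91.3 CPM, a tighter spread than that of S100a8. Slpi, a protease inhibitor of epithelial surfaces, rose from 16.6, 5.02, 6.68 and 6.41 CPM to 164, 111, 64 and 66.2 CPM (log2 fold change 3.57 ± 0.37). Saa3, an acute phase protein, was at 0 CPM in 3 untreated ears and 0.618 CPM in the other, and at 22.9, 17.1, 6.26 and 2.63 CPM with PMA. Lyz1, the 1 lower gene and outside the naming rule, fell from 17.3 to 31.5 CPM to 11.6 to 15.6 CPM.

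**Figure D3:**
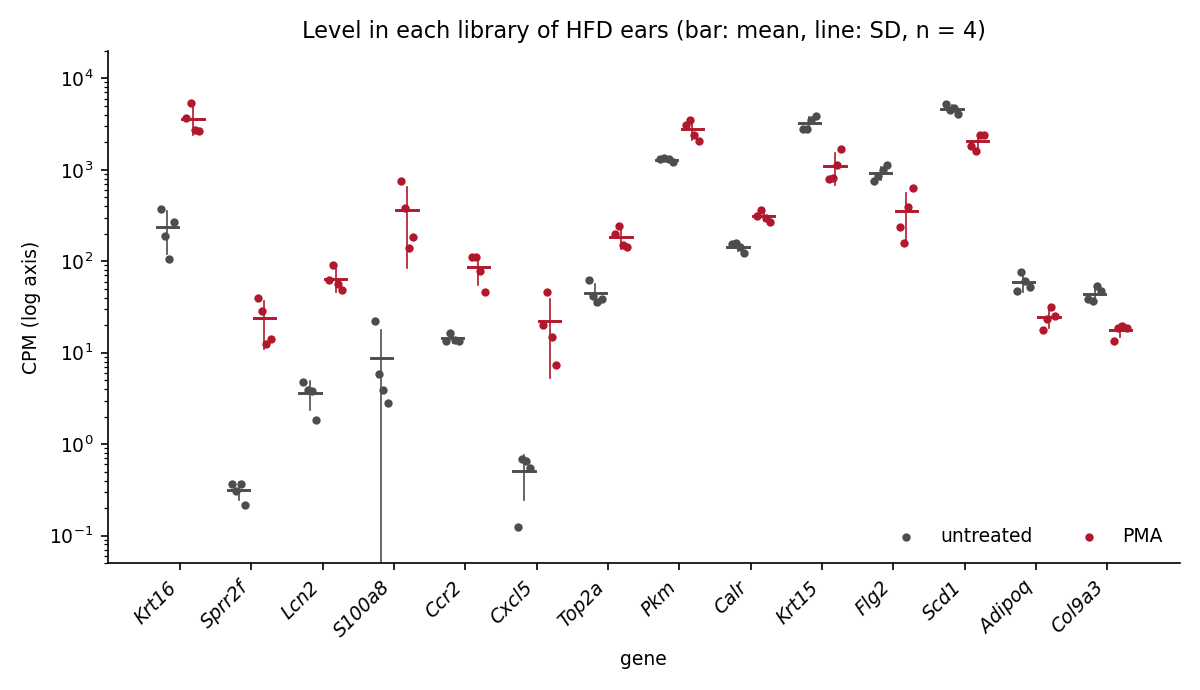
CPM on a log axis (y axis) for 14 genes (x axis) in each of the 4 untreated (grey) and 4 PMA-treated (red) ears of HFD mice. Points are libraries, bars are means and lines are the SD, cut at the axis where mean minus SD is below 0. The groups do not overlap for any of the 14 genes, which were picked from called genes. Groups did not overlap for 18.8% of all genes tested, 1154 of the 1292 called higher and 696 of the 809 called lower.

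Genes of inflammatory monocytes and activated macrophages rose as a group. Of 20 tested, 13 were higher and 0 lower, with a median log2 fold change of 2.51. That count is a description, as members near 0 in untreated ears, such as Acod1, may have passed the filter only through PMA libraries. The count was 10 without untreated replicate 3 or 4. Lyz2 and Msr1 lost their calls in 7 and 6 of the 8 leave-one-out fits. Ccr2, the receptor that brings monocytes into tissue, was at 13.6, 16.4, 13.8 and 13.5 CPM without PMA and 111, 111, 78.5 and 46.1 CPM with it (log2 fold change 2.60 ± 0.24, adjusted p = 1.49e-06). Chil3, a chitinase-like protein of myeloid cells, rose from 2.84, 0.155, 0 and 1.41 CPM to 47.6, 65.9, 58.8 and 28.5 CPM (log2 fold change 5.72 ± 0.80). Acod1, which makes itaconate in activated myeloid cells, had the steepest climb of the list, from 1.73, 0.0773, 0 and 0 CPM to 81.3, 77, 25.7 and 13.3 CPM (log2 fold change 7.02 ± 1.38, adjusted p = 0.00442). PMA replicate 4 again was the lowest treated library in all 3 genes.

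Markers of cells that live in untreated skin gave small counts, set against 7.34% higher and 4.6% lower over all genes tested; their difference from the myeloid lists was not tested. Resident macrophage genes were higher in 2 of 19 (Mrc1 and Cd68) and Langerhans and dendritic cell genes in 2 of 18 (Irf8 and Ccl22), with none lower in either list. T and NK cell genes were called in 0 of 15 by edgeR, with 2 at an unadjusted p under 0.05 (Thy1, adjusted p = 0.0538, and Lck, adjusted p = 0.165) and 1 called higher by DESeq2. Mast cell genes had 1 higher (Hdc, which makes histamine and is also used by neutrophils) and 1 lower (Kit) of 12, and endothelial genes 1 higher of 18, the adhesion molecule gene Icam1. Erythroid genes were called in 0 of 5 by edgeR and by DESeq2, with 1 (Hba-a2) at an unadjusted p under 0.05. Complement genes were called in 3 of 17, all higher: C5ar1, Cfb and Cfp, with the call of C5ar1 lost in 7 of the 8 leave-one-out fits, all but that without PMA replicate 4 (highest adjusted p = 0.267, edgeR). The summed level of the resident macrophage list was 754 to 903 CPM in untreated ears and 752 to 989 CPM in PMA ears. These small counts moved when 1 library was left out. The macrophage count was 1 without PMA replicate 2 or untreated replicate 4, and without PMA replicate 3 a gene was called lower. The dendritic count was 1 without untreated replicate 3, with 1 gene called lower without PMA replicate 4. The T and NK count was 1 higher without PMA replicate 1, and the endothelial count was 2 without untreated replicate 1. The mast cell count of higher genes was 0 without PMA replicate 1 or 2 or untreated replicate 2, 3 or 4, and that of lower genes was 0 without PMA replicate 1, 2 or 4 or untreated replicate 1 or 2, and 2 without untreated replicate 4.

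Chemokines, the attractants of these cells, rose in both families. Members near 0 in untreated ears, such as Cxcl5 and Ccl3, may have passed the low-count filter only through PMA libraries. The counts of both lists are therefore descriptions. Of 7 tested genes of the neutrophil chemokine axis 4 were higher: Cxcl5, Cxcl2, Cxcl1 and the receptor gene Cxcr2. Cxcl5 was at 0.124, 0.696, 0.654 and 0.543 CPM in untreated ears and 20.2, 45.9, 15 and 7.27 CPM in PMA ears (log2 fold change 5.36 ± 0.95, adjusted p = 0.00125). Cxcl2 went from 0.436 to 1.73 CPM to 2.38 to 24.2 CPM, with groups that did not overlap. The call of Cxcl1 was lost in 5 of the leave-one-out fits (highest adjusted p = 0.106).

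Of 18 CC chemokine and receptor genes 9 were higher and 1 lower. Ccl3 was at 0.741, 0, 0 and 0.109 CPM in untreated ears and 18.5, 20, 9.55 and 2.88 CPM in PMA ears (log2 fold change 6.09 ± 0.98, adjusted p = 0.000381). Ccr1, its receptor on myeloid cells, rose from 2.01 to 4.45 CPM to 10.9 to 54.1 CPM. Ccl7 and Ccl9, monocyte attractants, rose by 2.24 and 1.79 on the log2 scale, and Ccl22 by 1.66. The lower gene was Ccl21a, the homing signal of lymphatic vessels, outside the naming rule, which fell from 67.6 to 79.1 CPM to 31.6 to 50.2 CPM; its call was lost without PMA replicate 1 or 2. Ccl21a has near-identical copies, and its reads may be shared among them.

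Within the interleukin 1 family 5 of 18 genes were higher and 2 lower, and the direction differed by member. Il1f9, which encodes an interleukin 36 cytokine of keratinocytes, rose from 142, 137, 119 and 117 CPM to 263, 261, 220 and 216 CPM (log2 fold change 0.90 ± 0.13, adjusted p = 0.00012). Il33, an alarmin, rose from 97.6, 101, 79 and 120 CPM to 262, 340, 137 and 151 CPM. Il1rn, the natural antagonist of the interleukin 1 receptor, rose from 217, 203, 203 and 180 CPM to 386, 464, 293 and 248 CPM. Il18rap, a receptor subunit for interleukin 18, rose from 0.85 to 2.28 CPM to 5.77 to 15.4 CPM, and Il1f6 from 26 to 52 CPM to 52.5 to 74.6 CPM.

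Il18 itself went the other way, from 66.2, 60.1, 65.5 and 75.4 CPM to 46.4, 37.1, 43.4 and 48.8 CPM (log2 fold change -0.61 ± 0.16, adjusted p = 0.0157). The other lower gene was the decoy receptor gene Il1r2, outside the naming rule. Without PMA replicate 2 neither of these 2 was called, and 1 of them was called without PMA replicate 1 or 3 or untreated replicate 2, 3 or 4. The call of Il1f6 was lost in 3 of the fits. Il19, a cytokine of the interleukin 10 family, had 0 counts in all 4 untreated ears and 3.47, 6.12, 6.97 and 14.9 CPM with PMA, at least 116-fold higher against a floor of 3 counts over the untreated group. Il24, its relative, was the other of 2 higher genes among 12 tested cytokines, and its call was lost without PMA replicate 2. Both genes may have passed the low-count filter only through PMA libraries, so that count is a description. Tnf was at 2.18 to 3.48 CPM without PMA and 2.51 to 7.51 CPM with it, not past the test.

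Of 14 ligand and receptor genes of the epidermal growth factor family 4 rose: Hbegf, Epgn and Tgfa, whose products bind the epidermal growth factor receptor and drive keratinocyte growth, and Nrg1, a ligand of its relatives. Hbegf went from 16.8, 21.3, 29.1 and 21.4 CPM to 57.4, 58.1, 59.1 and 52.4 CPM (log2 fold change 1.35 ± 0.26, adjusted p = 0.00164). Epgn, which encodes epigen, went from 2.84, 7.65, 4.5 and 5.76 CPM to 36.7, 33.7, 16.9 and 24.5 CPM. The call of Tgfa was lost in 6 of the 8 leave-one-out fits, without PMA replicate 1 or 2 or any of the 4 untreated ones (highest adjusted p = 0.177, edgeR). That of Nrg1 was lost without PMA replicate 1 or 2, which left 2 of 14, and 1 gene was called lower without PMA replicate 4 or untreated replicate 1. In the STAT and SOCS list 5 of 20 rose and 1 fell. Stat3, the transcription factor of interleukin 6 type signals, rose from 306, 323, 280 and 295 CPM to 641, 636, 622 and 501 CPM (log2 fold change 1.00 ± 0.12, adjusted p = 2.8e-05). Exons of Stat5a overlap it on the opposite strand. Osmr and Il4ra, receptor genes, and the feedback gene Socs3 also rose, Il20rb fell by 0.51 on the log2 scale, and 3 of the 20 were higher without PMA replicate 2. Of 21 interferon-induced genes 3 were higher (Oasl2, Oas1a and Rsad2), and 1 without PMA replicate 2. The call of Rsad2 was lost in 5 of the fits.

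Matrix-degrading enzymes and the plasmin system gave 8 higher and 4 lower of 21 genes. Mmp3, a stromelysin, rose from 48.6, 26.8, 28.9 and 30.7 CPM to 307, 470, 200 and 165 CPM (log2 fold change 3.09 ± 0.27, adjusted p = 8.76e-07). Timp1, an inhibitor of such enzymes, rose from 2.72, 2.86, 3.85 and 4.45 CPM to 34.1, 34.3, 18 and 20.8 CPM. Plaur, the urokinase receptor gene, rose from 5.3 to 11.4 CPM to 15.2 to 49.3 CPM, and Mmp9 from 8.03 to 21.4 CPM to 22.9 to 59.6 CPM. The lower genes, all outside the naming rule, were Mmp2, Mmp11, Timp2 and Timp3, with falls of 0.66, 1.06, 0.58 and 0.65 on the log2 scale. Mmp11, Mmp13 and Mmp12 lost their calls in 5, 5 and 6 of the leave-one-out fits (highest adjusted p, edgeR, 0.182, 0.123 and 0.178). The higher count was 5 without PMA replicate 1 or 2 or untreated replicate 2, 3 or 4.

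Eicosanoid genes, which make and sense prostaglandins and other oxidised lipids, were higher in 4 of 27 and lower in 4. Alox8, a lipoxygenase known to be induced by phorbol esters in mouse skin, rose from 43, 61.2, 31.6 and 18.6 CPM to 352, 357, 591 and 298 CPM (log2 fold change 3.37 ± 0.62, adjusted p = 0.00337). Pla2g4e, Ptges and Ptges3, a phospholipase and prostaglandin E synthases, were the other higher genes, the last outside the naming rule. Aloxe3, whose product acts in the lipid barrier, fell from 235 to 299 CPM to 124 to 215 CPM. Alox12, Alox12e and Pla2g2f, the last outside the naming rule, also fell, but the lower count was 1 without PMA replicate 1 or 2 or untreated replicate 3 or 4.

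Most cell division genes rose. Of 27 mitosis genes 25 were higher and 0 lower (median log2 fold change 1.76), and of 27 DNA replication genes 20 were higher and 0 lower (median 1.06). Top2a, the topoisomerase that untangles chromosomes, was at 61.8, 42.1, 36 and 39 CPM in untreated ears and 200, 242, 149 and 143 CPM in PMA ears (log2 fold change 2.04 ± 0.22, adjusted p = 7.5e-06). Plk1, a mitotic kinase, rose from 22.6, 15.9, 13.5 and 10.6 CPM to 86.5, 90.1, 51.3 and 50.7 CPM. Cdk1, the kinase that drives entry into mitosis, rose from 16.6, 14.8, 11.7 and 19.7 CPM to 60.8, 88.9, 54.9 and 42.2 CPM. In all 3 genes the lowest treated ear was above the highest untreated ear by a clear margin.

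In the replication list Rrm2, a ribonucleotide reductase subunit, rose from 64.7, 55.3, 33.3 and 42.7 CPM to 197, 198, 144 and 144 CPM (log2 fold change 1.80 ± 0.18, adjusted p = 3.48e-06). Ccne1, the cyclin of the G1 to S step, rose from 4.69, 8.5, 4.29 and 5.54 CPM to 24.6, 34.9, 35.8 and 27.5 CPM. Uhrf1, which copies DNA methylation to new strands, rose by 1.56 on the log2 scale. Ribosome assembly genes were higher in 13 of 24 and lower in 0 (median 0.49), with Npm1, a nucleolar chaperone, from 176 to 239 CPM to 306 to 378 CPM. That count was less settled: 7, 6, 8, 5 and 5 without PMA replicate 1, PMA replicate 2, untreated replicate 2, untreated replicate 3 and untreated replicate 4.

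The cell cycle homology region TTTGAA, a short element through which mitotic genes are known to be held silent outside division, was searched on both strands in the same windows. Of the 27 mitosis genes 22 had a promoter in the table; 8 of their 23 promoters held it. The element is in 16% of all 32851 promoters of the table and in 11.3% of those matched to tested genes; with the same 68.8% of tested genes matched, these shares are given as descriptions and no comparison is drawn. The AP-1 site was in 0 of the 23. The 6 windows in which the element lies within 30 bases of the start are shown with the element in capitals, 5′ to 3′ on the gene's strand, in GRCm38.p6.
Top2a (chr11:99024190-99024249, minus strand): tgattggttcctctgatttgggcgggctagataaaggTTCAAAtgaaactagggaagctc
Cdk1 (chr10:69352913-69352972, minus strand): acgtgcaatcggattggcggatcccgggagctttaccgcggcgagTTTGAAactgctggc
Kif11 (chr19:37376322-37376381, plus strand): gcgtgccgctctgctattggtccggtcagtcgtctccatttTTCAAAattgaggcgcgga
Ube2c (chr2:164769869-164769928, plus strand): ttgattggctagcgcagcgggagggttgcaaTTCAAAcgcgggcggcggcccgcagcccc
Cdc20 (chr4:118437344-118437403, minus strand): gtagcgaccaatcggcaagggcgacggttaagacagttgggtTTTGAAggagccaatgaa
Prc1 (chr7:80294416-80294475, plus strand): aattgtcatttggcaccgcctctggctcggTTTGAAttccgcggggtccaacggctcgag
These genes rose by 2.04 (Top2a), 1.98 (Cdk1), 1.98 (Kif11), 1.77 (Ube2c), 1.51 (Cdc20) and 1.41 (Prc1) on the log2 scale. Kif11 is a spindle motor, Ube2c and Cdc20 serve the ubiquitin ligase that ends mitosis, and Prc1 bundles the midzone microtubules; Ube2c, Cdc20 and Prc1 were chosen for their windows after their values were seen.

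Transcripts of many sugar use and protein folding genes rose beside those of division. Of 21 glycolysis genes 13 were higher and 0 lower, with a median log2 fold change of 0.82. Pkm, pyruvate kinase, rose from 1295, 1328, 1326 and 1202 CPM to 3070, 3512, 2392 and 2078 CPM (log2 fold change 1.10 ± 0.15, adjusted p = 8.14e-05). Slc2a1, the glucose transporter GLUT1, rose from 86.5, 79.4, 88 and 109 CPM to 259, 262, 190 and 142 CPM, and Pfkl, a phosphofructokinase, by 1.49 on the log2 scale. Of 20 genes of endoplasmic reticulum chaperones and the unfolded protein response 13 were higher and 0 lower (median 0.65). Calr, calreticulin, rose from 156, 157, 142 and 124 CPM to 312, 363, 298 and 271 CPM (log2 fold change 1.10 ± 0.11, adjusted p = 3.48e-06). Hspa5, the chaperone BiP, rose from 508, 518, 420 and 402 CPM to 922, 1042, 781 and 751 CPM.

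Targets of NRF2, the regulator of defence against oxidants, were mixed, with 6 of 18 higher and 2 lower. Gsta4, a glutathione transferase that clears lipid aldehydes, rose from 14.8, 7.88, 9.15 and 15.4 CPM to 95.1, 137, 70.4 and 87 CPM (log2 fold change 3.05 ± 0.24, adjusted p = 4.74e-07). Slc7a11, the cystine importer, rose from 16.3, 23, 6.9 and 9.88 CPM to 113, 110, 72.9 and 47.1 CPM. Gstm1 fell from 186 to 208 CPM to 79.2 to 147 CPM, and the other lower gene was Gsta3, outside the naming rule, with its call lost in 6 of the leave-one-out fits. The higher count was 3 without PMA replicate 2 or 4 or untreated replicate 1, 2 or 3. The lower count was 1 without PMA replicate 2, 3 or 4 or untreated replicate 2, 3 or 4.

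Calls among lipid genes were mostly lower. Of 20 fatty acid synthesis genes 9 were lower and 0 higher. Scd1, the desaturase that makes oleate, fell from 5274, 4508, 4682 and 4052 CPM to 1839, 1598, 2407 and 2370 CPM (log2 fold change -1.17 ± 0.16, adjusted p = 9.9e-05), and all 4 PMA values were below all untreated values. Elovl5 and Fads1, of the polyunsaturated fatty acid route, fell by 0.83 and 1.14 on the log2 scale. The count was 4 without PMA replicate 2 or untreated replicate 3 and 5 without untreated replicate 1. Of 23 cholesterol genes 4 were lower, among them Hsd17b7, Pmvk and Dhcr7, and 1, 2, 2 and 2 without PMA replicate 1, 2 and 3 and untreated replicate 3. Hsd17b7 lost its call in 7 of the leave-one-out fits and Dhcr7 in 4. Of 20 fatty acid oxidation genes 4 were lower, among them Cd36, Ppara and Acadm, and 1, 2 and 2 without PMA replicate 1, 2 and 3; without untreated replicate 3, 1 gene was called higher. The barrier lipid list had 2 higher (Degs1 and Cers3) and 2 lower of 19. The lower ones were Cers4, a ceramide synthase that fell from 463 to 665 CPM to 219 to 324 CPM, and Slc27a4, a fatty acid transporter that fell from 434 to 635 CPM to 261 to 327 CPM. That higher count was 1 without PMA replicate 2 or 3 or untreated replicate 2, 3 or 4.

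Calls among adipocyte and cartilage genes, from the tissues beneath the ear's dermis, were all lower. Of 15 adipocyte genes 7 were lower (median -0.74). Adipoq, the hormone adiponectin, was at 47.6, 76.6, 60.7 and 52.1 CPM without PMA and 17.6, 23.5, 31.4 and 25.3 CPM with it (log2 fold change -1.28 ± 0.22, adjusted p = 0.000793). Lpl, lipoprotein lipase, fell from 104 to 176 CPM to 63.2 to 81 CPM. The count was 3 without PMA replicate 2 and 4 without untreated replicate 2. Of 13 tested cartilage genes 7 were lower (median -0.71). Col9a3, a chain of cartilage collagen, fell from 39, 36.9, 53.3 and 47.7 CPM to 13.4, 18.6, 19.7 and 18.7 CPM (log2 fold change -1.33 ± 0.19, adjusted p = 0.000137), and Col9a1 and Col11a2 by 1.34 and 1.62 on the log2 scale. The count was 3 without PMA replicate 1 or 2 or untreated replicate 2 or 4, and 4 without untreated replicate 3. The summed level of the adipocyte list was 1343 to 2062 CPM in untreated and 952 to 1188 CPM in PMA ears, and that of the cartilage list 708 to 981 and 471 to 657 CPM. With upper-quartile factors in place of TMM 8 adipocyte and 7 cartilage genes were lower.

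Other structural lists had few called members, set against 7.34% higher and 4.6% lower over all genes tested. Whether any list exceeds those shares was not tested. Fibroblast and matrix genes had 3 lower (Eln, Col1a2 and Sparc) and 1 higher of 23. The higher one was Tnc, tenascin C of wound matrix, from 72, 56.1, 52 and 47.8 CPM to 244, 240, 179 and 134 CPM (log2 fold change 1.81 ± 0.24). The call of Sparc was lost in 6 of the 8 leave-one-out fits, without PMA replicate 1 or 2 or any untreated replicate (highest adjusted p = 0.154, edgeR). The lower count was 1 without PMA replicate 2 and 5 without PMA replicate 3, and the higher count was 2 without PMA replicate 4. Nerve and Schwann cell genes had 2 lower of 10, among them S100b, a marker of Schwann cells, from 24.8, 34.5, 35.5 and 45.1 CPM to 13.7, 8.98, 19.6 and 12.9 CPM; the count was 1 without PMA replicate 2 and 4 without PMA replicate 4. Sebaceous genes had 2 lower of 17, Far2 and Soat1, and 6 without PMA replicate 4. Melanocyte genes had 1 lower of 9, and 0 without PMA replicate 2 or 4 or untreated replicate 1 or 2. That gene was Kit, also the lower call of the mast cell list.

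Muscle and hair shaft genes separated libraries within groups. The mean log2(CPM + 1) over the muscle list was 7.47 in untreated replicate 1 against 8.57, 8.52 and 8.59 in the other untreated ears, and 7.63, 7.57, 7.73 and 7.88 in the PMA ears. With untreated replicate 1 in, 4 of 17 muscle genes were lower (Mylpf, Myh4, Tnni2 and Myh1), and without it 10. The count was 2 without PMA replicate 1 or 3 or untreated replicate 2, and 1 without PMA replicate 2 or untreated replicate 3 or 4. The mean over the hair shaft list was 6.07, 5.42, 2.01 and 4.01 in untreated ears and 6.29, 2.5, 1.78 and 2.02 in PMA ears. There 1 of 22 genes was lower, the transcription factor gene Msx2, about the 4.6% lower over all genes tested. This hair shaft count was 5 without PMA replicate 1 and 0 without PMA replicate 2 or 3 or untreated replicate 1 or 4. Myh4 and Myh1 lost their calls in 7 and 6 of the leave-one-out fits.

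Circadian clock genes were lower in 7 of 19 and higher in 1. Per3 fell from 267, 202, 261 and 273 CPM to 129, 145, 173 and 187 CPM (log2 fold change -0.66 ± 0.13, adjusted p = 0.00247), and Tef, an output factor of the clock, from 221, 200, 255 and 220 CPM to 137, 98.3, 152 and 162 CPM. Per1 fell by 0.64 on the log2 scale, with its call lost in 6 of the leave-one-out fits (highest adjusted p = 0.111, edgeR). Bhlhe40, a repressor within the clock that also answers stress, rose from 92.9, 111, 131 and 121 CPM to 166, 216, 193 and 173 CPM. The lower count was 4 without PMA replicate 1 or 2 or untreated replicate 3 or 4. No source used here gives the hour at which ears were taken, and its part was not tested.

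**Figure D4:**
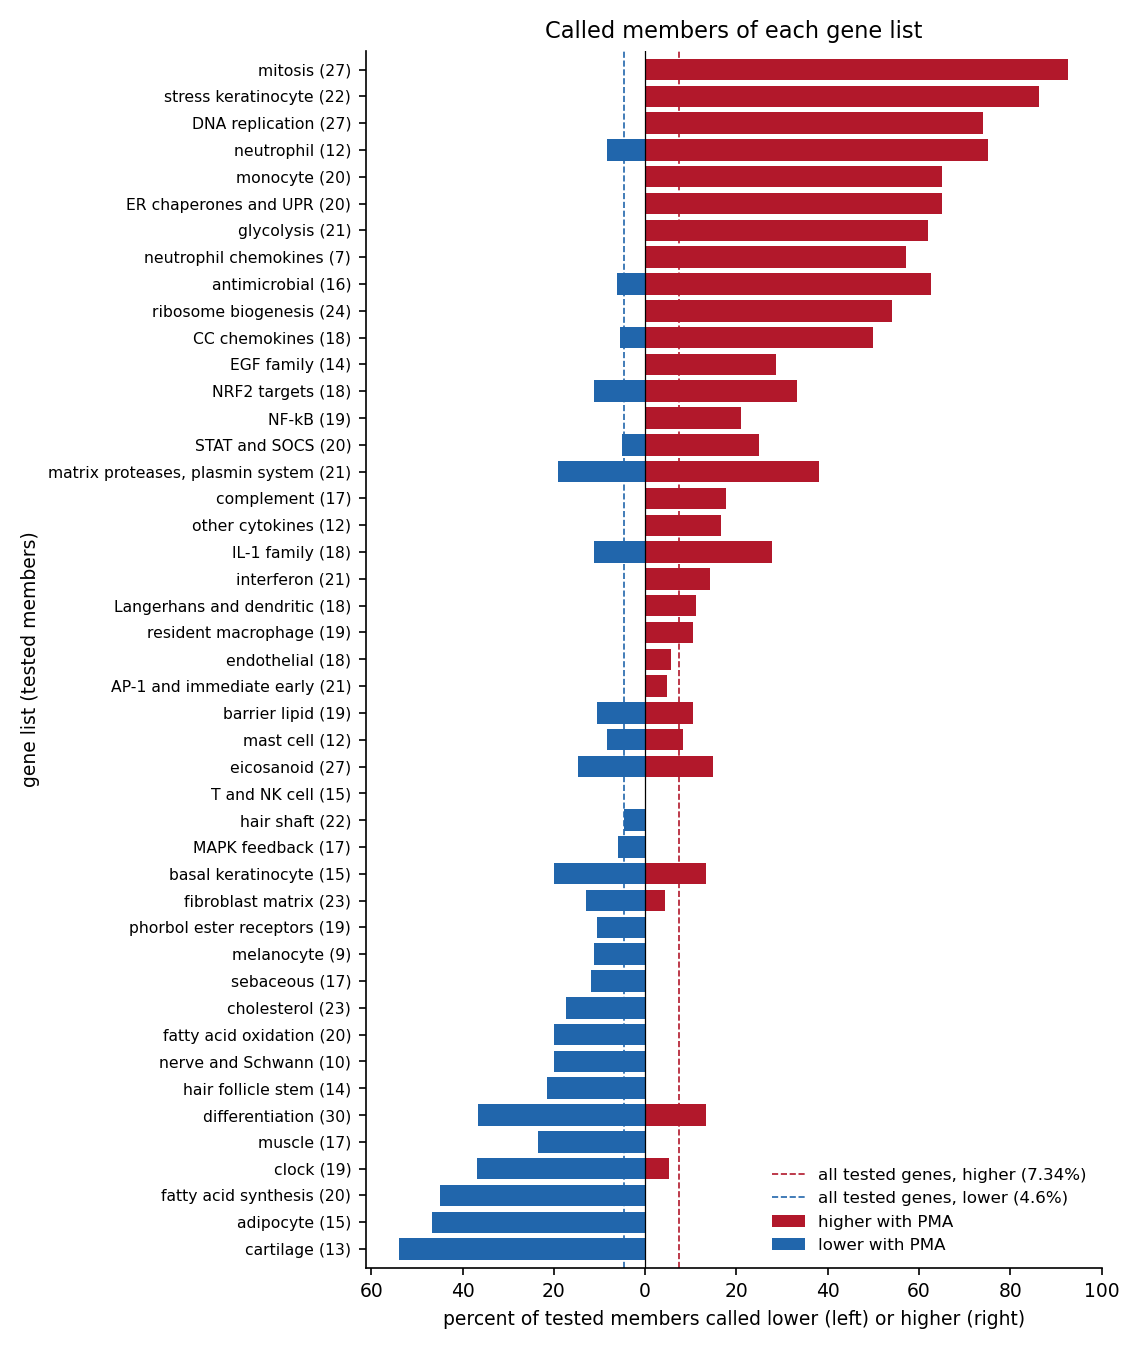
Percent of tested members called lower (blue, left) or higher (red, right) in each gene list (y axis, tested members in brackets), PMA over untreated ears of HFD mice. Dashed lines mark the shares over all tested genes, 7.34% higher and 4.6% lower. Mitosis and DNA replication genes lie far above the first, and cartilage, adipocyte and fatty acid synthesis genes beyond the second. The neutrophil bar covers the 12 of 20 members that passed the low-count filter, several through the PMA libraries alone. In other lists, members nearly absent in untreated ears may likewise have passed only through PMA libraries. These include the stress keratinocyte, antimicrobial, monocyte, chemokine and other cytokine lists. Their bars and the neutrophil bar are descriptions and are not to be read against the lines.

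Outside the lists, some of the largest changes fell on single genes. Cdhr1, a cadherin-related gene best known from photoreceptors, was at 1.11, 0, 0.0726 and 0.977 CPM without PMA and at 30.8, 31.3, 26.9 and 29.5 CPM with it (log2 fold change 5.97 ± 0.69, adjusted p = 1.8e-05). Its 4 treated values lay close together, with an SD of 2.00 CPM. Uox, urate oxidase, rose from 0.865, 0.618, 0 and 0.434 CPM to 72.4, 69.3, 33.3 and 20.2 CPM. F10, coagulation factor X, had 3 counts over the untreated ears and 13, 22.1, 3.6 and 2.13 CPM with PMA.

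Of the 12 largest decreases, 4 not in the lists are given here. Cyp1a1, the dioxin-inducible monooxygenase, fell from 48.8, 52, 37.3 and 44.1 CPM to 7.12, 8.66, 11.1 and 19.7 CPM (log2 fold change -1.98 ± 0.32, adjusted p = 0.000417). Fmo2, a flavin monooxygenase, fell from 72.5, 73.3, 93.4 and 82.3 CPM to 9.53, 14.6, 29.6 and 35.2 CPM. Mt4, the metallothionein of stratified epithelium, fell by 2.02 on the log2 scale. Serpina3b, a serine protease inhibitor, had the steepest fall of the named genes, from 16.6, 9.12, 13.1 and 15.2 CPM to 0.0963, 0.0795, 2.82 and 0.752 CPM (log2 fold change -3.78 ± 0.63).

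In ND mice the same treatment gave calls that overlapped those in HFD mice in part, with no call of opposite sign. In ND ears 2279 genes were called (12.9%), 1577 higher (8.96%) and 702 lower (3.99%), and the 2 comparisons share no library. Of the genes higher in HFD ears 935 were also higher in ND ears (72.4% of the HFD list and 59.3% of the ND list), and 359 were lower in both (44.4% and 51.1%). In all, 2049 of the 2101 HFD calls had the same sign in ND ears. The test of the difference itself, diet by PMA, called 1 gene of 17604 (0.00568%) in edgeR, with 815 genes at an unadjusted p under 0.05, and 24 genes in DESeq2. All 4 untreated ND libraries carry the number series RHS and all 4 treated ones RHP, so the series and the treatment cannot be told apart within that diet. With the series as a covariate, 453 genes were called in ND ears. That covariate rests on 1 library, untreated HFD replicate 1, set against the other untreated HFD ears.

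Teddm3, a transmembrane gene of an epididymal family on chromosome 16 (21152655 to 21154000, GRCm38), was the gene whose response differed by diet. In HFD ears it was at 75.4, 58, 48.2 and 49.2 CPM without PMA and 137, 191, 156 and 138 CPM with it, a log2 fold change of 1.43 ± 0.16. In ND ears its mean went from 8.36 to 91.3 CPM, a log2 fold change of 3.45, and the difference of -2.02 passed the test (adjusted p = 0.00054, edgeR). The HFD ears started higher and ended higher. Other genes had unequal fold changes that did not pass. Ccl3 rose by 6.09 in HFD ears and by 0.41 in ND ears on the log2 scale (adjusted p of the interaction = 0.28, edgeR). Acod1 rose by 7.02 in HFD ears and was not called in ND ears, at 2.43 (adjusted p of the interaction = 0.9995, edgeR). Among the differentiation genes 11 fell and 4 rose in HFD ears, and 0 fell and 8 rose in ND ears, with no interaction called among the 30; Lce1c, for example, had an interaction log2 value of -0.79 (adjusted p = 0.78, edgeR).

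**Figure D5:**
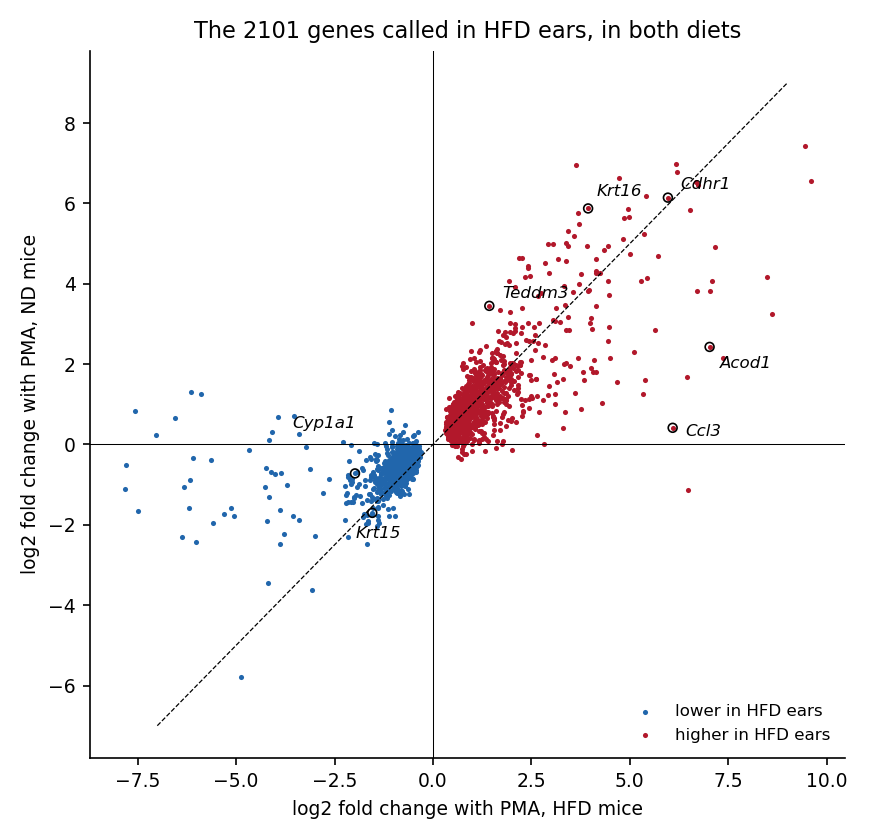
Log2 fold change with PMA in HFD ears (x axis) against that in ND ears (y axis) for the 2101 genes called in HFD ears, red where higher and blue where lower; the dashed line marks equal change. Teddm3, the 1 gene with a called interaction, lies above the line at 1.43 and 3.45, and Ccl3 lies far below it at 6.09 and 0.41.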

How the data were processed

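SMART-Seq v2 cDNA from 2 ng of ear RNA was made into Nextera XT libraries, which do not mark strand, and read as 2 x 151 bases, per the labels' protocols. The tools named are STAR 2.3 and featureCounts 1.5, with builds GRCm38 and mm10, per the submitters' processing notes; no source used here gives the counting options. The authors deposited raw counts per gene, which were used as they are. The table holds 0 spike-in rows although the labels name a spike-in.

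Genes were filtered with filterByExpr (minimum count 10, minimum total 15), given TMM factors, and fitted with edgeR 4.0.16 (R 4.3.3, limma 3.58.1) in 1 quasi-likelihood fit of the 4 group means over 16 libraries, with Benjamini-Hochberg adjustment over all genes tested. CPM use TMM-scaled totals, values are CPM in each library, and the SE of a log2 fold change is its size over the square root of F. DESeq2 1.42.0, other scalings and filters, a replicate block, the library number series and each library left out were the alternatives. On simulated data the fit recovered 10% of 1.5-fold, 40% of 2-fold and 70% of 4-fold changes, with 12 false calls among 52212 unchanged genes. The changed genes numbered 150, 300 and 150 over 3 simulations, a far smaller part than was called in the data. All groups shared 1 mean for the other genes, so these rates need not hold for the comparison reported.

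Named genes were the 12 largest increases and the 12 largest decreases among called genes with a mean CPM of at least 5 and no overlap between groups, skipping mitochondrial genes, predicted models and the segments of antigen receptors; up to 6 called members per list with the same mean, by absolute log2 fold change; from a list with none, the 2 members with the smallest p; and up to 6 called interaction genes. The comparison and the 47 lists were chosen with earlier results of these data known. No replicate pair of a group agreed within sampling noise, so each library counts once. The p-values set each difference between groups against the spread between these samples, estimated in the main fit over all 16 libraries. The libraries and the promoter windows, from the RefSeq table, were matched by name. A few called list members are counted but not reported here by name.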

Additional observations from a re-analysis of the deposited data

Results flagged for a closer look

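Single libraries stood apart from the other 3 of their group, by the ratio of their gap to the group's range (Dixon's criterion for 4 samples), in 28 of 391 gene and group pairs, where chance gives about 1 in 20. Untreated replicate 1 accounted for 14 of them. It was the highest untreated ear, in CPM, for Acod1 at 1.73, Saa3 at 0.618, Ccl3 at 0.741, S100a8 at 22.4, Il24 at 0.494, Lilrb4a at 15.9, Slpi at 16.6, Mmp13 at 3.21, Stfa1 at 2.84, Lce3b at 4.7 and Kif11 at 29.7. These 11 genes rose with PMA. It was the lowest untreated ear for Comp at 49.3, Acadm at 162 and Myh4 at 360 CPM, which fell with PMA. Without this library the whole comparison gave 1127 genes higher and 673 lower.

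Untreated replicate 2 was apart for F10 at 0.232, Opcml at 12.6, Ccr2 at 16.4 and Lpl at 176 CPM, each high, and for Per3 at 202 CPM, low. Untreated replicate 3 was apart for Nrg1 at 0.654 CPM, low, and for Lgr6 at 113 CPM, high. PMA replicate 4 was low for Junb at 282, Osmr at 62.1 and Stat3 at 501 CPM, and high for Ptges at 234, Acadm at 163 and Myh1 at 494 CPM. PMA replicate 1 was high for Hba-a2 at 6.26 CPM.

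Teddm3 answered PMA less steeply in HFD than in ND ears, with an interaction log2 value of -2.02 that passed the test over all genes (adjusted p = 0.00054, edgeR).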

How the results depend on the processing

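The counts of genes higher and lower in HFD ears stayed within 1.5 times of 1292 and 809 under all scalings, filters, DESeq2, the 2-group fit and the library number series tried. Leaving out 1 library gave 763 to 1447 higher and 442 to 1022 lower, with the lowest values without HFD PMA replicate 2; the higher count was also 859 without HFD untreated replicate 3 and 841 without HFD untreated replicate 4, and the lower count 537 without the former. These fits have fewer samples. Scaling moved the median log2 fold change by at most 0.046, and the share of higher among called genes ran from 53.1% (upper-quartile factors) to 64.9% (RHP libraries only), against 61.5%. The ND count was 453 with the number series as a covariate and 1763 to 2209 with 1 library left out. The interaction called 2 genes with a filter of 5 CPM, with no filter, with the series covariate and with the replicate block, 24 with DESeq2, and 1 to 4 with 1 library left out; the cause was not tested. Of 190 called genes picked by the naming rule, 132 kept their call without each of the 8 HFD libraries in turn, and 58 lost it at least once, with a highest adjusted p (edgeR) of 0.267. Whether the replicate numbers pair the libraries cannot be settled from 4 pairs. Deviations of same-numbered HFD libraries correlated at 0.20, 0.014, 0.12 and 0.079, and 2 of 4 matched their own number best. With the replicate block 1207 genes were higher and 760 lower in HFD ears and 2192 were called in ND ears. Depth limits genes near 1 CPM, where a library holds few counts.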
